A study of Mus musculus with 48 samples.

Results

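Mouse embryonic stem cells (ESCs) with induced knockout of Foxd3 were followed in the 4HT-treated libraries taken 1, 2, 3, 4 and 5 h after release from a double thymidine block. These are 10 of the 48 libraries of the series, chosen by treatment and hour of release as the sample titles give them. The 4 libraries of 4 h and 5 h were set against the 2 libraries of 1 h, and 2 h and 3 h, with 2 libraries each, give the course between. All cells are of the FOXD3-iKO genotype, an inducible knockout line, and grew in L2i medium. The 10 libraries come from cells given 4-hydroxytamoxifen (4HT), and the solvent ethanol (EtOH) was given to otherwise matching FOXD3-iKO cells, of which the libraries of 4 h and 5 h (4) and of 1 h (2) are used here. Cells were released 24 h after the 4HT, and 4-thiouridine (4SU), a uridine analogue that enters RNA as it is made, was given for 15 min, so the counts report newly made RNA. The sources used here give neither the number of clones behind the line nor the part of Foxd3 that is deleted, nor whether replicates came from separate cultures, so p-values measure the spread between these libraries, which may be technical. No measure of DNA content was used here, so the samples are named by hours of release and not by a phase.

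Thymidine in excess upsets the supply of deoxynucleotides and halts cells at the start of DNA synthesis; its removal lets them copy their DNA together. In S phase cells make large amounts of replication-dependent histone messages, whose genes lie in clusters and are copied from short units without introns, and they make the proteins of the replication fork. Genes for mitosis are switched on later, as cells near G2, many of them through a CHR element (TTTGAA) and CCAAT boxes in their promoters. FOXD3 is a forkhead transcription factor of pluripotent cells, and Foxd3 is needed for the early mouse embryo and its stem cells.

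Library totals in the 10 libraries ran from 10452390 to 15953054 counts, and a floor of 3 counts corresponds to 0.188 to 0.287 CPM (counts per 1e+06 counts of a library, here after TMM scaling, a factor per library from the bulk of its genes). Floors cover counting error only. Foxd3, the deleted gene, was at 1.48 ± 0.286 CPM in the 4HT libraries and at 5.67 ± 1.42 CPM in the EtOH libraries of 1 to 5 h (SD, n = 10 each). The highest 4HT library had 1.98 CPM and the lowest EtOH library 3.89 CPM, so the arms did not overlap (log2 fold change -1.92, SE 0.16, adjusted p = 3.8e-07, edgeR's quasi-likelihood test). Counts of Foxd3 thus remained above the floor in every 4HT library, and FOXD3 protein was not analysed here. ESC markers were present in every 4HT library, with Esrrb at 989 to 1090 CPM, Zfp42 at 911 to 1080 CPM, Nanog at 254 to 364 CPM and Pou5f1 at 75.8 to 113 CPM. Sox2, which lies inside the interval of Sox2ot, is listed at 0 in all 10. Of 12 fibroblast markers, the other cell type such a culture can hold, Postn and S100a4 were at 0 in all 10 libraries, Col1a1 did not pass 0.406 CPM, and Col5a2, Pdgfrb and Thy1 were at 1.71 to 10.8, 2.53 to 5.33 and 0.107 to 2.08 CPM. The ribosomal RNA genes Gm26917 and Gm42418 took 5.48 to 12.9% of the counts at 4 h and 5 h and 16.8 to 18% at 1 h.

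Between 1 h and 4 to 5 h of release the histone genes held most of the largest named decreases. Very long genes, several of them known from nerve cells, held most of the largest increases. Of 17739 genes tested, 1749 passed an adjusted p of 0.05 in edgeR's quasi-likelihood test (9.86%). They split into 677 that rose (3.82%) and 1072 that fell (6.04%), and 263 of the first and 203 of the second changed over 2-fold. The median log2 fold change of all genes tested was -0.02. Of the genes that rose, 676 had every library of 4 and 5 h above both of 1 h, and of those that fell 1063 had every one below, where 21.2% and 20.9% of all genes tested lie apart in those directions. The share of higher calls depends on the scaling: it was 38.7% with TMM factors, 51.4% (356 higher, 336 lower) with total counts alone and 23.6% (417 higher, 1349 lower) with totals outside the ribosomal RNA genes, which lowers the median of all genes to -0.16. More genes were called higher than lower without the low-count filter (2019 and 663) and with only the compared groups fitted (2118 and 1473). The count also rests on single libraries, since it was 517 and 488 without 1 h replicate 1 and replicate 2, 1011 and 1046 without 4 h replicate 1 and replicate 2, and 1007 without 5 h replicate 2. In these bulk samples fewer cells of a type and less RNA per cell cannot be told apart.

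The replication-dependent histone genes, which supply the histones that package new DNA, fell as a block. Of 65 tested, 60 fell and none rose, with a median log2 fold change of -1.78. Their summed level was 579, 528, 622 and 513 CPM in the libraries of 4 and 5 h, against 1660 and 1660 CPM in those of 1 h. Of these genes, 17 were already called lower at 2 h, where 0.163% of all genes tested were, and 50 at 3 h, where 0.975% were. These early counts rest on single libraries: with 1 h replicate 1, 1 h replicate 2, 2 h replicate 1 or 2 h replicate 2 left out, 4, 2, 6 and 2 genes of the whole table were called lower at 2 h. With 1 h replicate 1, 1 h replicate 2, 3 h replicate 1 or 3 h replicate 2 left out, 63, 42, 37 and 25 were called lower at 3 h. The 2 h libraries held 852 and 617 CPM and the 3 h libraries 605 and 479 CPM in all, so that the sums of 3 h and of 4 to 5 h overlap. The 5 members not called are Hist1h1t, Hist1h4a, Hist1h2aj, Hist1h2ao and Hist2h2ab. At 4 and 5 h, leaving out any 1 library left 49 to 57 members called lower and none higher. Many histone genes of the same type, such as H4, are near-identical copies of each other, so the split of reads between them is uncertain. Their sum does not depend on that split, but no source used here says how reads matching several genes were treated.

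**Figure D1:**
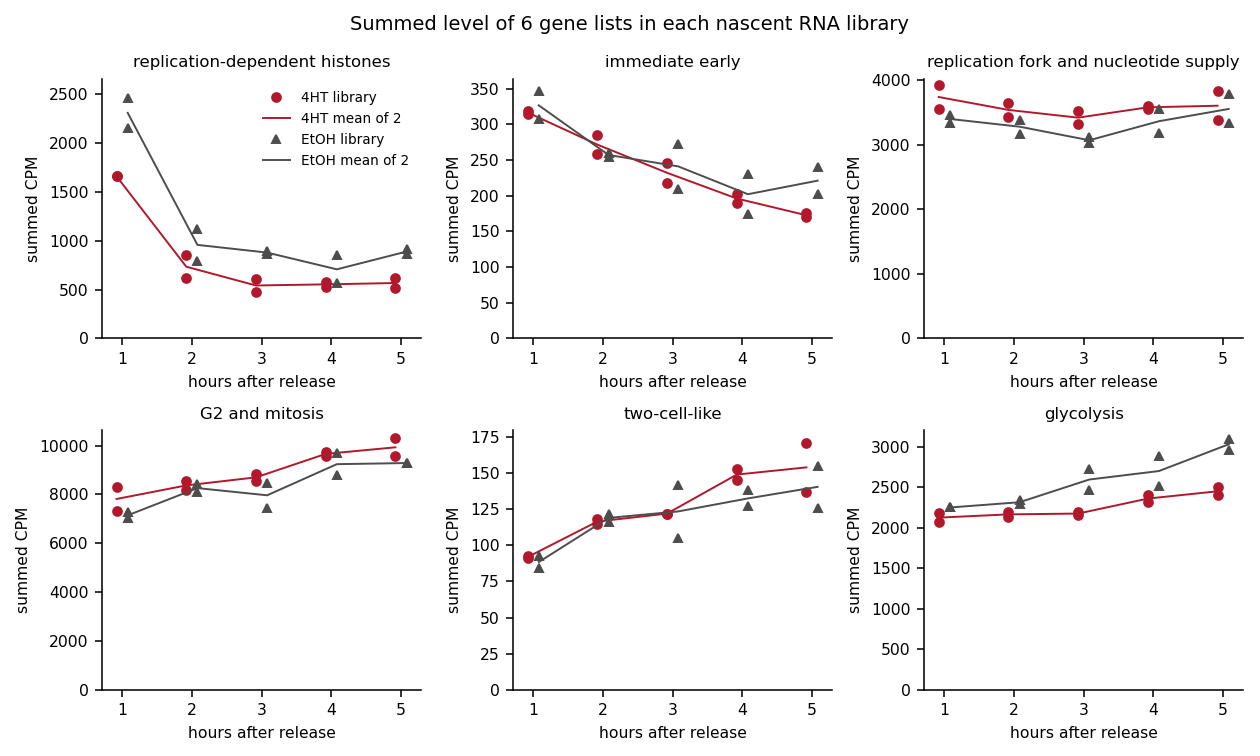
Summed CPM of the members of 6 gene lists in each library by hours after release, with 4HT libraries as red circles, EtOH libraries as grey triangles and lines through the mean of 2 libraries. The histone sum of 4HT cells is 1660 CPM in both 1 h libraries and 513 to 622 CPM in the 4 libraries of 4 and 5 h, while the G2 and mitosis sum stands at 9560 to 10300 CPM at 4 and 5 h and at 7340 and 8290 CPM at 1 h.

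Hist1h4i, a histone H4 gene (mm10, chromosome 13, 22040636 to 22041362, minus strand), had the smallest p of the histones. Its level was 11.1, 12.8, 11.3 and 11.3 CPM at 4 and 5 h, against 44.5 and 48.6 CPM at 1 h. All 4 late libraries lie far below both early ones (log2 fold change -2.0, SE 0.16, adjusted p = 1.3e-06). At 2 h it had already come to 15.2 and 12.2 CPM and at 3 h to 10.7 and 9.73 CPM. Hist1h2ae, which encodes a histone H2A, stood at 5.68, 4.81, 4.95 and 3.79 CPM at 4 and 5 h and at 21.6 and 20.6 CPM at 1 h. Its log2 fold change was -2.13 (SE 0.20, adjusted p = 9e-06). Hist1h4i and Hist1h2ae are among the 15 largest falls, for which groups without overlap were a condition of naming. Hist1h1d, for a linker histone, which binds DNA between nucleosomes, was at 35.5, 35.5, 34.5 and 32.4 CPM, against 103 and 108 CPM at 1 h (-1.61, SE 0.16, adjusted p = 1.8e-05). Hist1h1a, for another linker histone, fell by 1.28 on the log2 scale (SE 0.16, adjusted p = 0.00012). Hist1h3d, for a histone H3, was at 9.02, 8.48, 9.26 and 9.12 CPM at 4 and 5 h and at 34.4 and 32 CPM at 1 h. Its 4 late values span less than 1 CPM and lie below both early ones (-1.89, SE 0.20, adjusted p = 2.4e-05). Hist1h2bh, an H2B gene, had the largest fall of all named genes, at 2.43, 2.2, 2.48 and 1.54 CPM, against 12.8 and 11.6 CPM at 1 h (-2.49, SE 0.28, adjusted p = 5.1e-05). Trim17 also fell (-2.31, SE 0.26, adjusted p = 5.1e-05), but its counted interval overlaps Hist3h2a, and no source used here says how reads in the overlap were counted.

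The promoters of 3 of these genes are shown because the histone list had the most members called and they move together. They were taken in order of p among called members whose promoter holds a string searched. That each shows such a string was therefore fixed by the choice. Each runs from 250 bases before the start to 50 bases from it on, 5′ to 3′ on the gene's strand (RefSeq, GRCm38.p6), and capitals mark CCAAT boxes (CCAAT, or ATTGG on the other strand) and CHR letters (TTTGAA). The positions are chr13:23571171-23571470 on the minus strand for Hist1h2ae, chr13:23554782-23555081 on the plus strand for Hist1h1d, and chr13:23575513-23575812 on the plus strand for Hist1h3d.
Hist1h2ae: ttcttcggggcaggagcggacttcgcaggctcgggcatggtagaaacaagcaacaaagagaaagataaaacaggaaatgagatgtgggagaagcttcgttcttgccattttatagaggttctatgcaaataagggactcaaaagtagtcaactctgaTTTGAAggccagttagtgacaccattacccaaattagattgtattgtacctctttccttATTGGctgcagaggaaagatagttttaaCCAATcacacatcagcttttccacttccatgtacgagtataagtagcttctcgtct
Hist1h1d: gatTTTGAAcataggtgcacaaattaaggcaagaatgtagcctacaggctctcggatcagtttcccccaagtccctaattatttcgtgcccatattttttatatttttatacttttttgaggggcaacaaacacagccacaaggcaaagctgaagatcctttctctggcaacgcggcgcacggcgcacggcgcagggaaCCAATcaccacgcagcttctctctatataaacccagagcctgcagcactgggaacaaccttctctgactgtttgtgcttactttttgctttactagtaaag
Hist1h3d: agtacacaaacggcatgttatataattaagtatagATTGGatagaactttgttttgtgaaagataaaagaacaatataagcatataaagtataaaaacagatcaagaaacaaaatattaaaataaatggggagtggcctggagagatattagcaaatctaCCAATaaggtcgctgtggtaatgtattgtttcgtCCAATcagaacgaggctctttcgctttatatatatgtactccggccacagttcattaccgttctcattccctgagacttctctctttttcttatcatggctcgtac
Both strands were searched for TTTGAA, for the box CCAAT and for the E2F strings TTTCCCGC and TTTGGCGC, none of which contains another. Of the 60 histones that fell, 52 matched a RefSeq promoter. CCAAT was in 43 of the 52 (82.7%) and in 38.0% of all 27025 promoters, and TTTGAA was in 24 (46.2%), against 18.2% of all. Neither E2F string was in any of the 52 windows, where 1.63% of all promoters hold at least 1 of them. A match is a string of letters and not a measured site, and gene clusters share sequence, so the 52 are not independent.

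Genes of the replication fork and of nucleotide supply had smaller fold changes than the histones, and most calls were lower. Of 40 tested, 11 fell and 1 rose, a share called of 30% beside 9.86% of all genes tested, with a median of -0.22. Slbp, the protein that binds the stem-loop of histone messages (chromosome 5, 33634952 to 33652574, minus strand), led them, at 69.7, 78.2, 73 and 78.6 CPM at 4 and 5 h and 95.3 and 115 CPM at 1 h. The late libraries all lie below the early ones (-0.49, SE 0.09, adjusted p = 0.0016). Rpa2, a subunit of the single-strand DNA binding complex RPA, fell by 0.47 (SE 0.09, adjusted p = 0.0041), and Asf1b, a histone chaperone, also fell by 0.47 (SE 0.09, adjusted p = 0.0047). Tipin, of the fork protection complex, and Fen1, the flap endonuclease of the lagging strand, fell by 0.61 and 0.50 (SE 0.13 and 0.11, adjusted p = 0.0085 and 0.01). Pcna, the sliding clamp, was at 53, 58.3, 60 and 65.8 CPM at 4 and 5 h and at 72.6 and 75.4 CPM at 1 h, which passed narrowly (-0.32, SE 0.09, adjusted p = 0.034). Pole2, a subunit of the leading-strand polymerase, was the member that rose (0.30, SE 0.07, adjusted p = 0.015). Its call was lost with total counts alone and without the low-count filter, among other fits. The 11 lower calls became 3 and 1 without 1 h replicate 1 and replicate 2, 5 without 4 h replicate 1, 7 without 4 h replicate 2, 7 without 5 h replicate 2, and 3 with total counts alone or without the low-count filter.

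Of 28 licensing and origin genes 3 fell and none rose, a share of 10.7% beside 9.86% of all genes tested, with a median of 0.02. These were Wdhd1, which links helicase and polymerase (-0.50, SE 0.09, adjusted p = 0.0016), Orc6 of the origin recognition complex (-0.39, SE 0.08, adjusted p = 0.0045) and Cdc7, the kinase that fires origins (-0.26, SE 0.08, adjusted p = 0.046). The call of Cdc7 was lost in DESeq2 and with total counts alone, among other fits. Of 26 E2F, cyclin and CDK genes of G1 and S 3 fell and 2 rose, a share of 19.2%, with a median of -0.07. Ccne1, the cyclin of S phase entry, was at 25.8, 26.9, 26.5 and 25 CPM at 4 and 5 h, against 36.3 and 36.3 CPM at 1 h. Its late libraries are close to each other and all lower (-0.48, SE 0.08, adjusted p = 0.0019). Its paralogue Ccne2 was at 22.3, 26.6, 22.7 and 24.6 CPM and at 31.3 and 37.1 CPM at 1 h, which did not pass the test (-0.51, SE 0.24, adjusted p = 0.2). E2f6, a repressor of the E2F family, and Tfdp1, the DNA-binding partner of E2Fs, fell by 0.83 and 0.59 (adjusted p = 0.0002 and 0.0016), and the pocket proteins Rbl2 and Rbl1 rose by 0.30 and 0.29 (adjusted p = 0.028 and 0.03). The calls of Rbl2 and Rbl1 were lost with total counts alone and without the low-count filter, among other fits. Of 14 cohesin genes 13 had positive values, with a median of 0.27, and none of these passed. Cdca5, which protects cohesin on replicated DNA, had -0.33 (adjusted p = 0.049), a call lost in 15 of 19 other fits, among them DESeq2 and each fit without a library.

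Of 63 genes of G2 and mitosis tested, 22 rose, by small amounts, and none fell. The share called was 34.9%, beside 9.86% of all genes tested, and the list median was 0.33. The list medians over 1 h were 0.11 at 2 h, 0.17 at 3 h, 0.29 at 4 h and 0.35 at 5 h. Ckap2, a microtubule-associated protein of the spindle (chromosome 8, 22168160 to 22185819, minus strand), had the smallest p. It was at 208, 227, 227 and 230 CPM at 4 and 5 h and at 143 and 154 CPM at 1 h. Every late library lies above both early ones (0.59, SE 0.09, adjusted p = 0.00058), as do 185 and 190 CPM at 2 h and 216 and 212 CPM at 3 h. Cenpf, a kinetochore protein, rose the most of those named, with 265, 253, 248 and 316 CPM at 4 and 5 h, against 133 and 148 CPM at 1 h (0.94, SE 0.20, adjusted p = 0.0062). At 2 h and 3 h it was at 143, 163, 159 and 181 CPM, so that most of its rise lies between 3 h and 4 h. Cdc25c, the phosphatase that activates the mitotic kinase CDK1, had 34.3, 34.4, 39.4 and 40.1 CPM, against 24.9 and 24.3 CPM at 1 h (0.58, SE 0.10, adjusted p = 0.0021). Cenpa, the histone H3 variant of centromeres, rose by 0.52 (adjusted p = 0.0024), Hmmr, a spindle assembly factor, by 0.53 (adjusted p = 0.0036), and Cdc20, the activator of the anaphase-promoting complex, by 0.52 (adjusted p = 0.0051).

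The cyclins of the later cycle were among the called genes near the threshold. Ccnb1, the mitotic cyclin, was at 186, 193, 207 and 205 CPM at 4 and 5 h and at 149 and 166 CPM at 1 h (0.33, SE 0.08, adjusted p = 0.019). Ccna2, the cyclin of S and G2, was at 91, 95, 99.7 and 101 CPM, against 76.1 and 72.8 CPM at 1 h (0.38, SE 0.10, adjusted p = 0.03). In both the groups do not overlap. The other called members are Bub3, Nusap1, Kif23, Gtse1, Plk1, Bub1b, Ccnb2, Mki67, Dlgap5, Aspm, Cenpe, Kif2c, Aurka and Mad2l1. Of the 41 members not called, Foxm1, a transcription factor of mitotic genes, had -0.30. The list's count rests on few libraries: 3 and 6 were called without 1 h replicate 1 and replicate 2, 9 and 11 without 4 h replicate 1 and replicate 2, 9 without 5 h replicate 2, and 7 with total counts alone or with totals outside the ribosomal RNA genes. No member was called lower in any of these.

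The promoter of Ckap2 is shown for comparison with the histones. It was chosen after its values were seen and on the condition that it holds both TTTGAA and CCAAT, so their presence was fixed by the choice. It lies at chr8:22185770-22186069 on the minus strand (RefSeq, GRCm38.p6), with the same window, and capitals mark TTTGAA and ATTGG, the CCAAT box on the other strand.
Ckap2: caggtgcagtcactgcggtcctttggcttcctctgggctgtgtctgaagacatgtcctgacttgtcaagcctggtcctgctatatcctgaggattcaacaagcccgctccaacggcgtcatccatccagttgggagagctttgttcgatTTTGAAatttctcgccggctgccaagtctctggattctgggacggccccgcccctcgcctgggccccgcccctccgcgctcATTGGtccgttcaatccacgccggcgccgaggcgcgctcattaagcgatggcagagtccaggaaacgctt
Its TTTGAA begins 101 bases and its ATTGG 20 bases before the start site. Of the 22 called G2 and mitosis genes 19 matched a RefSeq promoter. TTTGAA was in 14 of these (73.7%), against 18.2% of all promoters, CCAAT in 16 (84.2%), against 38.0% of all, and both in 13 (68.4%), against 7.16% of all. Of the histones that fell, 23 of 52 (44.2%) held both strings as well, so both sets that moved in opposite directions carry them. Of the fork and nucleotide genes that fell, 10 matched, of which 2 held TTTGAA and 7 CCAAT.

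Immediate early genes are those that cells switch on within minutes of growth factor or stress signals. Of 23 tested, 13 fell and none rose, a share called of 56.5% beside 9.86% of all genes tested, with a median of -0.94. The sum of the list was 189, 203, 175 and 170 CPM at 4 and 5 h and 319 and 314 CPM at 1 h. Between them it was 285 and 258 CPM at 2 h and 246 and 218 CPM at 3 h. Ccn1, a matrix protein induced by serum (chromosome 3, 145646976 to 145649981, minus strand), was at 15.9, 15.6, 13.2 and 14.2 CPM at 4 and 5 h, against 40.9 and 43.6 CPM at 1 h. The groups lie far apart (-1.52, SE 0.16, adjusted p = 1.8e-05). Nr4a1, an orphan nuclear receptor, Atf3, a stress-induced transcription factor, and Srf, the serum response factor itself, fell by 1.03, 1.19 and 1.08 (adjusted p = 0.00013, 0.00013 and 0.00017). Fos was low throughout, at 0.608, 1.15, 0.479 and 0.181 CPM at 4 and 5 h and at 2.55 and 2.24 CPM at 1 h (-2.12, SE 0.40, adjusted p = 0.0031), and its last value lies under the floor of 3 counts. The others called are Dusp5, Dusp1, Junb, Jun, Ier3, Maff, Myc and Jund. Of those not called, Egr1 had -0.28 and Fosb 0.43. The count was 5 and 7 without 1 h replicate 1 and replicate 2.

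Of the genes named by the p-value rule of the 3 h comparison, 3 encode proteins that bind actin. Tpm1, a tropomyosin that lines actin filaments (chromosome 9, 67022590 to 67049406, minus strand), was at 70.6, 68.2, 65.6 and 61.9 CPM at 4 and 5 h and at 138 and 134 CPM at 1 h. The level went down at each hour, with 104 and 95.1 CPM at 2 h and 76.7 and 74.4 CPM at 3 h, and the late and early groups lie apart (-1.03, SE 0.06, adjusted p = 9.9e-08). Tpm4, a second tropomyosin, was at 67.8, 67.1, 61.3 and 58.7 CPM, against 139 and 139 CPM at 1 h (-1.13, SE 0.08, adjusted p = 3.6e-07). Csrp1, a LIM protein bound to actin bundles, was at 52.2, 43.6, 46.4 and 43 CPM, against 108 and 118 CPM at 1 h (-1.29, SE 0.09, adjusted p = 3.6e-07). These 3 belong to no list, and actin genes as a group were not tested.

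Of 13 genes of FGF and ERK feedback 2 fell and none rose, a share of 15.4% beside 9.86% of all genes tested. Their median was -0.14. Spry4, an inhibitor of receptor signalling (chromosome 18, 38586268 to 38601268, minus strand), was at 8.62, 8.58, 8.38 and 6.95 CPM at 4 and 5 h, against 25.6 and 21.9 CPM at 1 h (-1.55, SE 0.15, adjusted p = 1.2e-05). Unlike the histones it was still at 23.2 and 22.5 CPM at 2 h, and it came to 14.4 and 12.1 CPM at 3 h. Etv4, a transcription factor downstream of ERK, fell by 0.62 (SE 0.12, adjusted p = 0.0028). Nfkbia, the inhibitor of NF-kappaB and itself one of its targets, was at 10.7, 9.94, 7.59 and 8.22 CPM, against 16.2 and 17.3 CPM at 1 h (-0.89, SE 0.12, adjusted p = 0.00017).

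**Figure D2:**
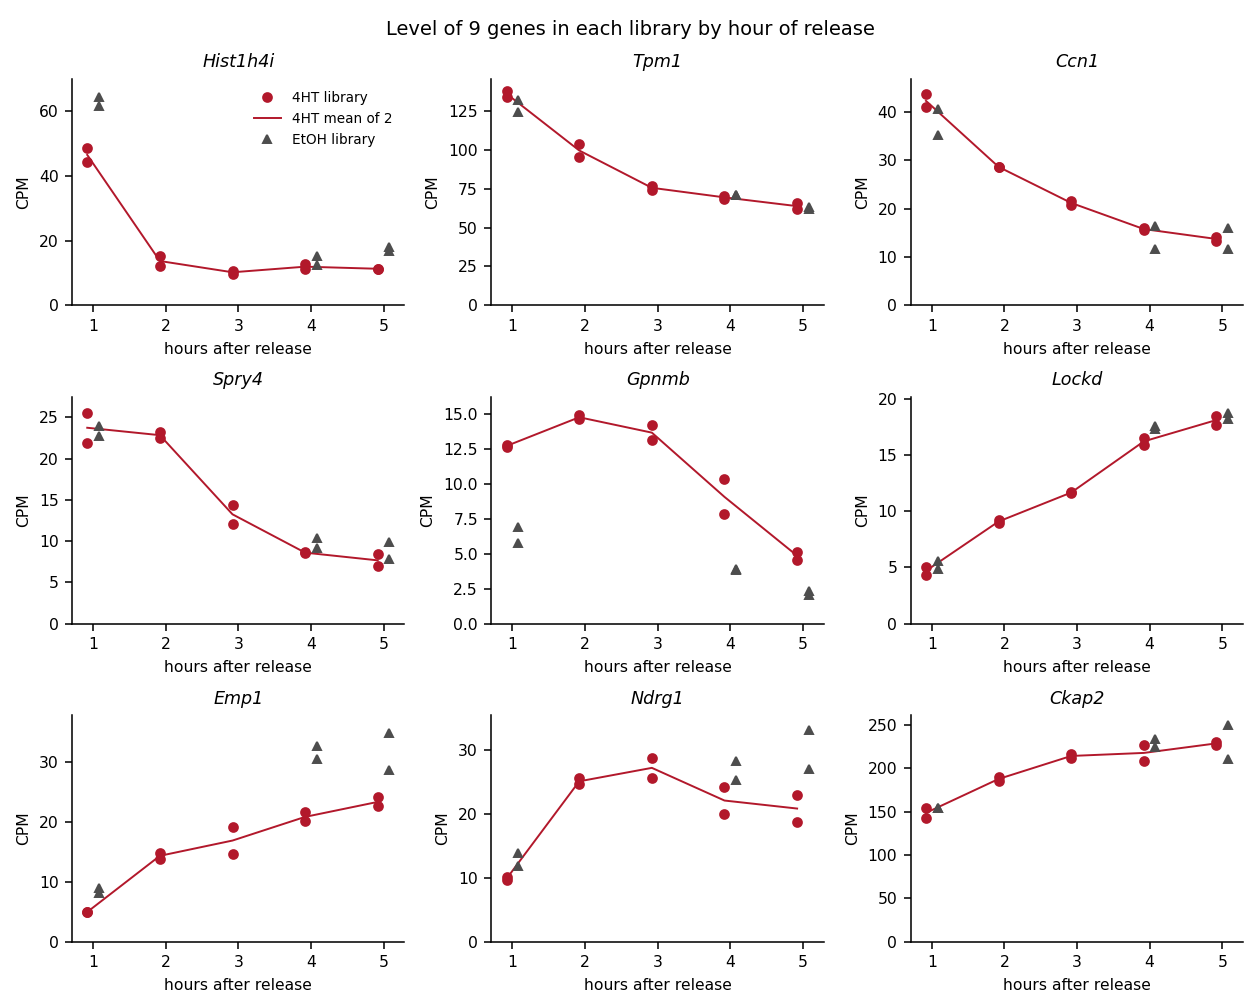
CPM of 9 genes in each library by hours after release, with 4HT libraries as red circles and their mean as a line, and EtOH libraries of 1, 4 and 5 h as grey triangles. Hist1h4i drops between 1 h and 2 h, Spry4 after 2 h, Tpm1 and Ccn1 hour by hour, and Lockd climbs to 15.9 to 18.5 CPM at 4 and 5 h, against 4.36 and 5.01 CPM at 1 h.

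Among the genes that rose, Lockd had the smallest p. It is a long non-coding RNA gene (chromosome 6, 134929092 to 134956798, plus strand) just downstream of the CDK inhibitor gene Cdkn1b. It was at 15.9, 16.5, 17.7 and 18.5 CPM at 4 and 5 h and at 4.36 and 5.01 CPM at 1 h. The rise was stepwise, with 8.91 and 9.24 CPM at 2 h and 11.7 and 11.6 CPM at 3 h, and replicates of an hour lay close together (1.88, SE 0.12, adjusted p = 9.9e-08). Cdkn1b, looked at after these values were seen, had 0.11 (adjusted p = 0.69). Emp1, a membrane protein of epithelial cells (chromosome 6, 135362545 to 135383173, plus strand), was at 20.1, 21.6, 24.1 and 22.6 CPM, against 4.94 and 5.01 CPM at 1 h (2.15, SE 0.15, adjusted p = 3.4e-07). Serpine2, a secreted protease inhibitor, was at 90.4, 86.3, 89.4 and 84.3 CPM, against 45.8 and 44.2 CPM at 1 h (0.96, SE 0.10, adjusted p = 1.8e-05). In all 3 the late libraries lie above both early ones, which for Emp1, among the 15 largest rises, was a condition of naming.

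Of 19 glycolytic genes tested, 4 rose, 15 did not pass and none fell, a share called of 21.1% beside 9.86% of all genes, with a median of 0.16. Pfkp, the platelet form of phosphofructokinase, was at 269, 284, 312 and 307 CPM at 4 and 5 h and at 182 and 193 CPM at 1 h (0.64, SE 0.09, adjusted p = 0.00021). Pfkl, the liver form of that enzyme, rose by 0.74 (SE 0.12, adjusted p = 0.00075), Pkm, the muscle pyruvate kinase, by 0.46 (SE 0.08, adjusted p = 0.0019), and Pgk1, phosphoglycerate kinase, by 0.41 (SE 0.11, adjusted p = 0.023). With total counts alone 2 were called. Slc16a3, a lactate exporter outside that list, was at 4.66, 5.44, 7.99 and 5.15 CPM, against 1.81 and 0.426 CPM at 1 h. The 1 h libraries differ from each other by more than those of 4 and 5 h do in proportion (2.27, SE 0.39, adjusted p = 0.0017). That the groups do not overlap was a condition for naming this gene.

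The largest increases were in other genes. Of the 15 largest named by rule, 11 have counted intervals over 100 kb. Of all 17739 genes tested, 1948 are of 100 to 300 kb and 566 are over 300 kb. Some of the 15, such as Kcnj3, Kcnc2, Gria3 and Adgrl3, encode ion channels, receptors or adhesion molecules of nerve cells, while others do not. Dgkb, a diacylglycerol kinase (chromosome 12, 37817726 to 38634239, plus strand), was at 16.5, 15.5, 11.7 and 16.9 CPM at 4 and 5 h and at 2.39 and 2.34 CPM at 1 h. The 2 h and 3 h libraries held 4.68, 5.09, 5.67 and 7.92 CPM, between the early and the late ones (2.67, SE 0.59, adjusted p = 0.013). Kcnj3, an inwardly rectifying potassium channel, was at 14.3, 15.3, 8.78 and 17.8 CPM, against 1.81 and 2.98 CPM at 1 h (2.57, SE 0.69, adjusted p = 0.033). Csmd1, a membrane protein with complement-like domains, was at 36.3, 35.4, 28.8 and 45.3 CPM, against 7.9 and 7.03 CPM at 1 h (2.28, SE 0.45, adjusted p = 0.0068). In 13 of the 15 the lowest late library was 5 h replicate 1, and the spread between late libraries was wide. Others named are Inpp4b, Adgrl3, Dcdc5, Spock3, Fign, Gria3, Slc16a3, Abcb5, Kcnc2 and Emp1. Of the 15, all but Slc16a3 and Emp1 lost their call when a 1 h library was left out.

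**Figure D3:**
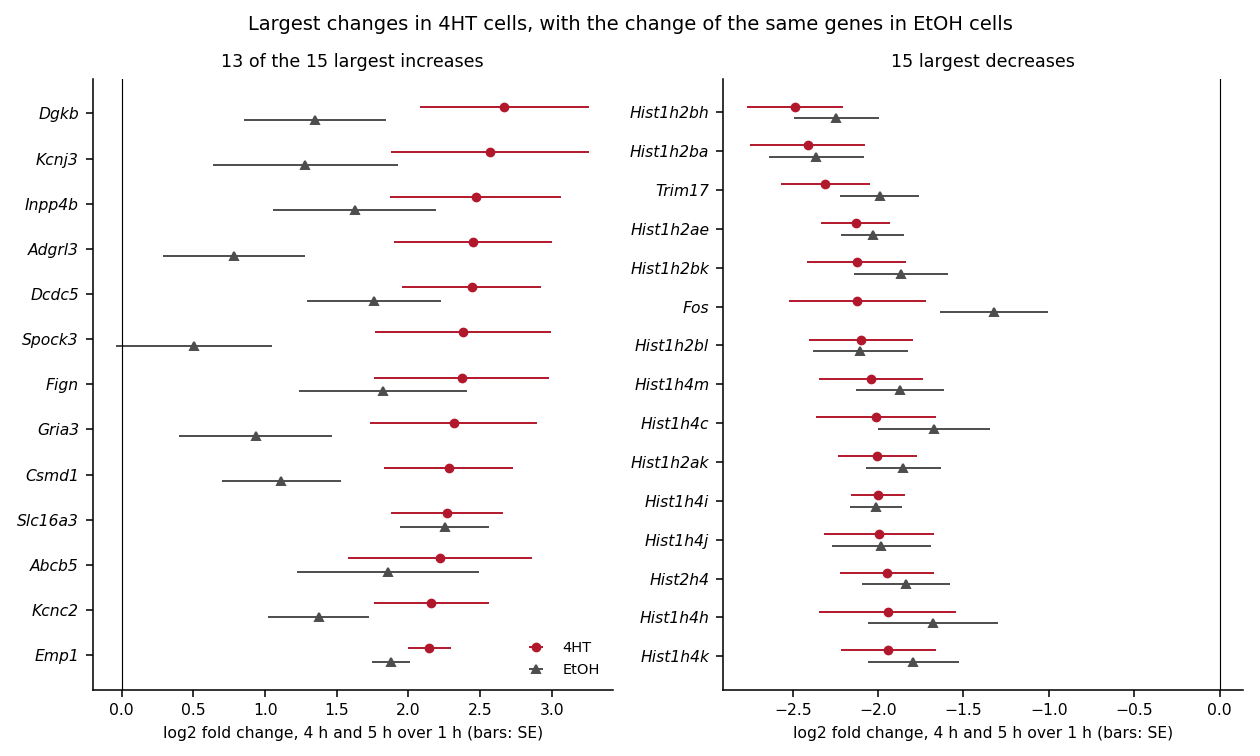
Log2 fold change of 4 and 5 h over 1 h for 13 of the 15 largest named increases (left) and the 15 largest decreases (right), with 4HT cells as red circles and EtOH cells as grey triangles and bars of 1 SE. The decreases are 13 histones, Trim17 and Fos with narrow bars; the increases run from 2.15 (Emp1) to 2.67 (Dgkb) in 4HT cells with mostly wider bars.

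Change over release went with gene length. The median log2 fold change was -0.17 in the 1646 genes tested under 3 kb, 0.02 in the 4931 genes of 30 to 100 kb and 0.66 in the 566 genes over 300 kb. Across all 17739 genes tested the Spearman correlation of fold change and length was 0.31, a description of genes that share libraries. Of the 566 longest genes 84 rose and 4 fell (14.8% and 0.707%), where 3.82% and 6.04% of all genes tested did. With each library's length trend removed, 34 of these rose and 60 fell, with a median of 0.05. Removing the trend brings the median of a length class near 0 by construction, so that fit is no test of the rise of long genes. The 15 largest increases kept their call there, several with smaller fold changes, such as 1.29 in place of 2.28 for Csmd1, 1.69 in place of 2.47 for Inpp4b and 1.89 in place of 2.67 for Dgkb. Other properties of the libraries moved with these values. Receptor genes of smell and of the vomeronasal organ, 1965 genes of which 33 passed the filter, summed to 124, 125, 104 and 137 CPM at 4 and 5 h and to 82.2 and 78.4 CPM at 1 h. Genes over 300 kb summed to 74800, 71500, 71100 and 84200 CPM, against 48300 and 51800 CPM at 1 h, and the ribosomal RNA genes took 10.4, 12.9, 7.2 and 5.48% of the counts, against 18 and 16.8%. The receptor genes were chosen after the data were seen, and the part of these library properties in the result was not tested.

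**Figure D4:**
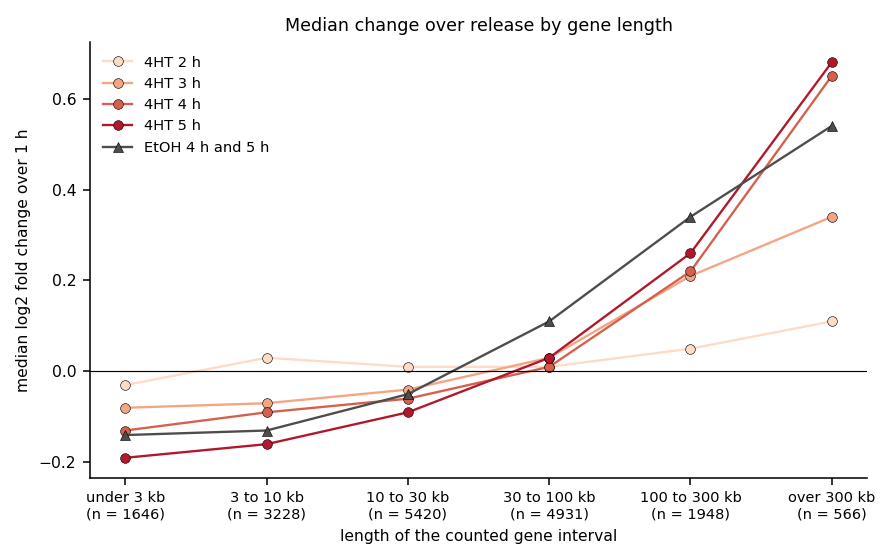
Median log2 fold change over 1 h of all genes tested in 6 classes of counted gene length, for 4HT cells at 2, 3, 4 and 5 h (light to dark red circles) and for EtOH cells at 4 and 5 h together (grey triangles). At 4 h and 5 h the medians of 4HT cells climb with length to 0.65 and 0.68 in genes over 300 kb; at 2 h that class is at 0.11.

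Two-cell-like genes are those of the early embryo that a small share of ESCs switches on. Of 16 tested, 9 rose and none fell, a share called of 56.2% beside 9.86% of all genes tested, with a median of 0.73. The sum of the list was 145, 153, 137 and 171 CPM at 4 and 5 h and 92.3 and 91.5 CPM at 1 h. Zfp352, a zinc finger gene of the early embryo, was at 4.66, 6.59, 4.71 and 4.88 CPM, against 1.56 and 0.852 CPM at 1 h (2.05, SE 0.36, adjusted p = 0.0018). Sp110, a nuclear body protein, was at 3.85, 3.45, 4.23 and 3.61 CPM, against 1.07 and 1.07 CPM at 1 h (1.82, SE 0.28, adjusted p = 0.00063). Zscan4e and Zscan4c, of a zinc finger family that marks this state, rose by 0.73 and 0.71 (SE 0.17 each, adjusted p = 0.012 and 0.016), and Usp17le, a deubiquitinase gene, by 1.28 (SE 0.19, adjusted p = 0.00047). The Zscan4 and Usp17l genes are near-identical copies, so the values of single members are uncertain. The count was 4 and 3 without 1 h replicate 1 and replicate 2, 6 without 4 h replicate 2 or 5 h replicate 2, and 4 with total counts alone.

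Of 16 naive pluripotency genes 3 fell, a share of 18.8%, with a median of -0.17. Of 10 core genes 1 fell, a share of 10% beside 9.86% of all genes tested, with a median of -0.19. None of either list rose. Klf5, a naive factor, was at 181, 195, 184 and 172 CPM at 4 and 5 h, against 269 and 259 CPM at 1 h (-0.53, SE 0.08, adjusted p = 0.00051). Tbx3 and Dppa3 fell by 0.36 and 0.88 (adjusted p = 0.013 and 0.035), and Lin28a, an RNA-binding regulator of let-7, by 0.56 (adjusted p = 0.0054). Tbx3, Dppa3 and Lin28a lost their call with total counts alone. Of 11 formative and primed genes 3 rose (27.3%). Fgf5, a marker of the primed epiblast, was low, at 4.56, 2.93, 3.11 and 2.44 CPM, against 0.823 and 1.28 CPM at 1 h (1.64, SE 0.34, adjusted p = 0.0056). Lef1, a WNT effector, rose by 1.02 (adjusted p = 0.012) and Dnmt3a, a DNA methyltransferase, by 0.36 (adjusted p = 0.037). The call of Dnmt3a was lost with total counts alone and without the low-count filter, among other fits. Of 12 primitive endoderm genes Lama1 and Gata6 rose (0.38 and 0.45) and Sparc fell (-0.46), a share of 25%. Each of these calls was lost with total counts alone and without the low-count filter, among other fits. Sox17, Sox7 and Foxa2 did not pass 0.9 CPM in any of the 10 libraries. Of 12 fibroblast markers 3 were tested, and Col5a2, a fibrillar collagen, passed at 9.63, 8.79, 6.07 and 10.8 CPM, against 2.3 and 2.13 CPM at 1 h (adjusted p = 0.048). The summed fibroblast list was 9.98 to 15.2 CPM at 4 and 5 h and 6.18 and 7.9 CPM at 1 h. Col5a2 held most of the late sums, so the sum mainly follows that gene. The other 2 members tested were not called. Pdgfrb was at 3.65, 3.66, 2.71 and 2.53 CPM, against 4.52 and 3.41 CPM at 1 h. Thy1 was at 0.71, 0.942, 0.399 and 0.993 CPM, against 0.329 and 0.107 CPM at 1 h. The call of Col5a2 was lost with total counts alone, with 4 h alone and with 5 h alone.

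Of 30 p53 targets 3 rose and 2 fell, a share called of 16.7% beside 9.86% of all genes tested. Plk2, a kinase induced by p53, was at 52, 50.1, 43.4 and 49.4 CPM at 4 and 5 h, against 33.2 and 33.7 CPM at 1 h (0.54, SE 0.10, adjusted p = 0.0024), and it was already at 49 and 50.5 CPM at 2 h. Cdkn1a, the CDK inhibitor p21, was at 168, 164, 180 and 155 CPM, against 126 and 130 CPM at 1 h (0.38, SE 0.11, adjusted p = 0.034). It was at 187 and 174 CPM at 2 h. Its call was lost with total counts alone and with 4 h or 5 h alone, among other fits. Mdm2, the ubiquitin ligase of p53, was at 372, 389, 384 and 406 CPM and at 293 and 365 CPM at 1 h, which did not pass (0.24, SE 0.10, adjusted p = 0.13). Pmaip1, which encodes the apoptosis activator NOXA, and Tigar, a regulator of sugar metabolism, fell by 0.54 and 0.43 (adjusted p = 0.00057 and 0.0084). Of 41 genes of DNA damage signalling and repair 1 rose and 1 fell, a share of 4.88%. Smarcal1, which remodels stalled forks, rose (0.40, adjusted p = 0.01).

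Among the rest, Hspa5, the chaperone of the endoplasmic reticulum, was at 62.2, 66.5, 68.3 and 78.4 CPM at 4 and 5 h, against 42.1 and 48.5 CPM at 1 h (0.60, SE 0.10, adjusted p = 0.0016), the 1 call among 14 heat shock genes. Of 24 ATF4 targets 2 rose and 3 fell (20.8%), and of 28 ribosome biogenesis and MYC genes 1 rose and 1 fell (7.14%). Of 21 cholesterol genes 1 fell (4.76%), Sqle, squalene epoxidase (-0.49, adjusted p = 0.0011). Of 83 cytosolic ribosomal protein genes 1 rose, Rpl7 (0.27, adjusted p = 0.042), a share of 1.2% where 9.86% of all genes were called. Rpl7 lost its call with total counts alone and without the low-count filter, among other fits. Of 21 mitochondrially encoded genes mt-Nd5 and mt-Cytb, of respiratory complexes I and III, rose and mt-Tp, a tRNA, fell (14.3%). Both rises lost their call with total counts alone and with 4 h alone, among other fits. The 1 h libraries were uneven there, with mt-Nd5 at 585, 534, 601 and 576 CPM at 4 and 5 h and at 349 and 153 CPM at 1 h (1.19, SE 0.30, adjusted p = 0.025).

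The hours between give the course of the change. The comparisons of 2 h, 3 h and 4 to 5 h with 1 h share the 1 h libraries, so their values are given side by side only. At 2 h 41 genes passed (0.231%), 12 higher (0.0676%) and 29 lower (0.163%), and at 3 h 302 (1.7%), 129 higher (0.727%) and 173 lower (0.975%). Genes that rose by 4 and 5 h had medians of 0.31, 0.55, 0.78 and 0.80 at 2, 3, 4 and 5 h. Those that fell had medians of -0.22, -0.37, -0.51 and -0.59. Both sets were selected by their 4 and 5 h libraries, which favours larger medians at those hours than at 2 h and 3 h. Ndrg1, a gene induced by stress and hypoxia (chromosome 15, 66929318 to 66969640, minus strand), was an early riser, at 24.6 and 25.5 CPM at 2 h and 25.6 and 28.7 CPM at 3 h, and at 24.2, 19.9, 22.9 and 18.7 CPM at 4 and 5 h, against 9.62 and 10.1 CPM at 1 h. All later libraries lie above those of 1 h (2 h, 1.34, adjusted p = 0.00044; 4 and 5 h, 1.12, SE 0.14, adjusted p = 9.3e-05). The counts rest on single libraries: without 1 h replicate 1, 1 h replicate 2, 2 h replicate 1 and 2 h replicate 2 in turn, 7, 5, 8 and 4 genes passed at 2 h. Without 1 h replicate 1, 1 h replicate 2, 3 h replicate 1 and 3 h replicate 2 in turn, 110, 51, 49 and 42 passed at 3 h.

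Some genes were at 2 and 3 h away from the middle of the ends. Against the mean of 1 h and of 4 to 5 h, 39 genes passed (0.22%), 29 higher (0.163%) and 10 lower (0.0564%) at 2 and 3 h. Ndrg1 led (0.84, SE 0.10, adjusted p = 0.0018). Mboat1, an acyltransferase of membrane lipids, was at 10.6, 10.7, 12.1 and 11.9 CPM at 2 and 3 h, against 6.66 and 6.07 CPM at 1 h and 7.6, 8.37, 7.99 and 7.04 CPM at 4 and 5 h (0.68, SE 0.09, adjusted p = 0.0071). Ano1, a calcium-activated chloride channel, was at 38.8, 39.9, 45.5 and 42.1 CPM at 2 and 3 h, against 22.9 and 22.6 CPM at 1 h and 42.6, 36.2, 32.7 and 26.5 CPM at 4 and 5 h (0.58, SE 0.10, adjusted p = 0.025). Gpnmb, a membrane glycoprotein, was at 14.6, 14.9, 13.1 and 14.2 CPM at 2 and 3 h, against 12.8 and 12.6 CPM at 1 h and 7.81, 10.3, 4.55 and 5.15 CPM at 4 and 5 h (0.63, SE 0.10, adjusted p = 0.022). Histones such as Hist1h4i were below the middle (-0.97, SE 0.13, adjusted p = 0.0071). With total counts alone no gene passed, and leaving out any 1 of these libraries but 5 h replicate 1 left 1 to 11.

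Between 5 h and 4 h no gene passed (0%) in edgeR's quasi-likelihood test or in DESeq2. In edgeR 629 genes had an unadjusted p under 0.05, and the smallest adjusted p was 0.65. Gpnmb (-0.90, SE 0.17) and Tgm1, a transglutaminase of epithelia (-0.70, SE 0.14), stood first, both lower at 5 h. Tgm1 was at 9.58 and 8.67 CPM at 5 h and at 15.9 and 13.8 CPM at 4 h, which lie apart but did not pass over all genes. Set against 1 h alone, 5 h gave 1159 calls and 4 h gave 767.

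EtOH cells, which keep Foxd3, also changed between 1 h and 4 to 5 h. In the 4 EtOH libraries of 4 and 5 h against the 2 of 1 h, 2106 genes passed (11.9%), 1060 higher (5.98%) and 1046 lower (5.9%). The split was 306 and 690 with total counts alone and 439 and 2204 with totals outside the ribosomal RNA genes. Of the genes that rose in 4HT cells, 433 of 677 were called higher in EtOH cells too, which are also 433 of the 1060. Of those that fell, 576 of 1072 were called lower in EtOH cells, of 1046 there. Of the genes called in 4HT cells, 5 that rose and 7 that fell had the opposite sign in EtOH cells. The share of opposite signs over all genes tested is not given here, so these counts have no base beside them. The arms share no library, and the fold changes of all 17739 genes correlated with a Pearson r of 0.71, a description across genes. Histones had 62 of 65 members called lower in EtOH cells, with a median of -1.70, G2 and mitosis genes had 24 of 63 called higher (0.37), immediate early genes 12 of 23 lower (-0.76) and two-cell-like genes 10 of 16 higher (0.76). The replication fork list had 2 lower and 1 higher of 40 (-0.08). The EtOH count was 529 and 635 without 1 h replicate 1 and replicate 2, 3265 and 1198 without 4 h replicate 1 and replicate 2, and 275 when only these groups were fitted.

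**Figure D5:**
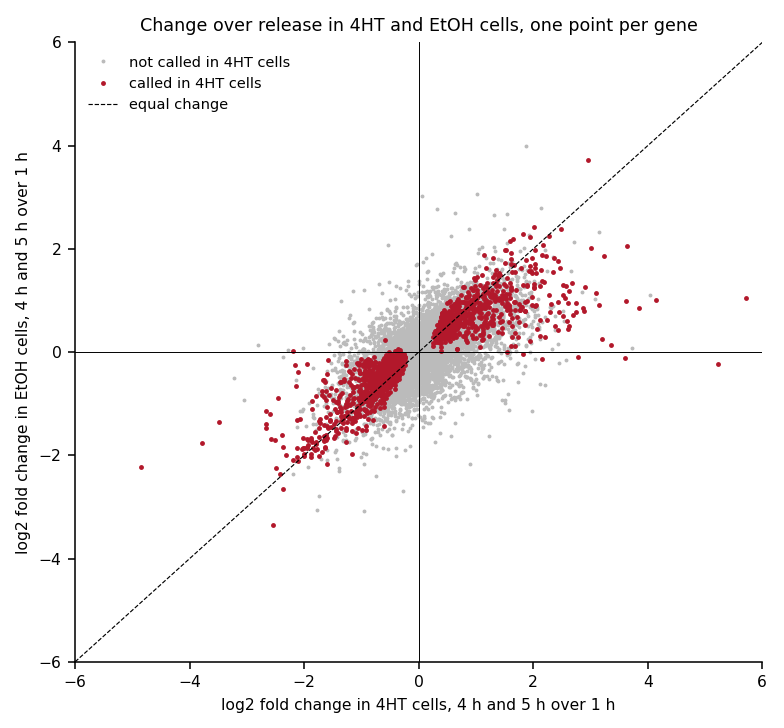
Log2 fold change of 4 and 5 h over 1 h in 4HT cells (horizontal axis) and in EtOH cells (vertical axis) for all 17739 genes tested, with the 1749 genes called in 4HT cells in red and a dashed line of equal change. Points lie along the line (Pearson r 0.71), and 5 genes called higher and 7 called lower in 4HT cells have the opposite sign in EtOH cells.

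The difference between the arms was tested as an interaction, the change over release in 4HT cells minus that in EtOH cells. No gene passed (0%) in edgeR or in DESeq2, 464 had an unadjusted p under 0.05 in edgeR, and the smallest adjusted p was 1. Nothing above is therefore shown to be particular to 4HT cells, nor do the p-values show that the arms act alike. Nfkbia stood first, with 10.7, 9.94, 7.59 and 8.22 CPM at 4 and 5 h and 16.2 and 17.3 CPM at 1 h in 4HT cells, against 14.3, 13, 16.2 and 16 CPM at 4 and 5 h and 17.7 and 18.1 CPM at 1 h in EtOH cells. Its difference was -0.62 (SE 0.16, unadjusted p = 0.0012). Col9a2, a cartilage collagen, and Bnip3, a mitochondrial protein induced by low oxygen, followed, with differences of 1.02 (SE 0.27) and -0.56 (SE 0.16). Csmd1, among the largest increases in 4HT cells, was at 12.3, 25.7, 27.8 and 20.6 CPM at 4 and 5 h and at 7.66 and 12.1 CPM at 1 h in EtOH cells (1.11, adjusted p = 0.097), with a difference of 1.17 (unadjusted p = 0.069). Without the low-count filter 82 genes passed, 79 of them higher. That fit keeps every gene with any count in the libraries fitted, and the levels of the 82 genes were not examined.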

How the data were processed

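Newly made RNA labelled with 4SU was extracted with Trizol LS and made into libraries with the KAPA RNA Hyperprep kit, per the labels' protocols. The authors deposited whole-number counts per gene, not normalized. The submitters' processing notes name STAR, featureCounts and the build mm10. No source used here gives versions, a strand setting or how multiply mapped reads were treated, so overlapping and antisense genes are uncertain. In all 54752 genes listed the given length spans start to end, so any introns lie inside the counted interval. Gene IDs matched the name table in 54723 cases. No pair of libraries was identical, and every sample column had a sample.

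All 24 synchronized libraries (12 groups of 2) were fitted together with edgeR 4.0.16 in R 4.3.3 (robust quasi-likelihood test, TMM factors, filterByExpr with a minimum count of 10, one mean per group), and a gene was called where its p, adjusted by Benjamini-Hochberg over all genes tested, was under 0.05. SE is the log2 fold change over the square root of F. Of called genes whose groups do not overlap, whose mean log2 CPM reaches 1 and whose symbol is no provisional one, the text names from the 15 largest changes each way; of the course and the difference between arms, from the 12 smallest p-values; of a list, called members by smallest p. Foxd3, Pcna, Ccne1, Ccne2, Ccna2, Ccnb1, Cdkn1a and Mdm2 are named whatever their values, and further members of a list by name only. Alternatives were DESeq2 1.42.0, RLE factors, total counts, totals outside Gm26917 and Gm42418, no filter, a replicate block, the length trend of each library removed by offsets, thinning, only the compared groups, 4 h or 5 h alone and each library left out. Members and lists were chosen with earlier results of these data known. Some named genes are not reported here.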

Additional observations from a re-analysis of the deposited data

Results flagged for a closer look

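Over the 148 named genes, 7 had a library of 4 or 5 h in 4HT cells that stood apart from the other 3 (gap over range above Dixon's 95% value for 4 samples), where chance gives about 1 in 20. In 4 h replicate 2, Hist1h4i was at 12.8 CPM (others 11.1 to 11.3), Hist1h4j at 3.03 CPM (4.79 to 5.03), Hist1h1b at 32.1 CPM (35.6 to 35.9), Zfp352 at 6.59 CPM (4.66 to 4.88) and Lama1 at 145 CPM (158 to 159). Ckap2 was at 208 CPM in 4 h replicate 1 (others 227 to 230), and Spry4 at 6.95 CPM in 5 h replicate 2 (8.38 to 8.62). Each of these values stayed on the same side of both 1 h libraries as the other 3.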

How the results depend on the processing

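For 4 and 5 h against 1 h in 4HT cells, 1749 calls became 692 with total counts alone, 2682 without the low-count filter, 2705 with the replicate block, 3591 with only the compared groups, 767 with 4 h alone, 1159 with 5 h alone, 3765 with only the 4HT arm (chosen after seeing the data) and 488 to 1294 with a library left out. The calls of the whole table are therefore a range, while 46 of the 123 named calls held in every fit (histones, Lockd, Emp1, Tpm1 and Ckap2 among them); 71 were lost in at least 1 fit without a library and 42 with total counts alone. At 2 h, 41 calls became 17 (total counts), 12 (totals outside the ribosomal RNA genes), 117 (no filter), 77 (block), 21 (thinned), 105 (DESeq2) and 4 to 8 (a library left out). At 3 h, 302 became 68, 99, 756 and 482 in the first 4 of these settings, 1121 with only the compared groups, 455 in DESeq2 and 42 to 110. The departure at 2 to 3 h gave 0, 4, 164, 93 and 3 in the first 5, 145 with only the compared groups, 96 in DESeq2 and 1 to 38, against 39. Between 5 h and 4 h 2 genes passed without the filter and 0 with any library left out. In EtOH cells 2106 became 996 (total counts), 3339 (no filter), 3584 (block), 275 (compared groups), 1174 (4 h alone), 1152 (5 h alone) and 529 to 3265; the difference between arms gave 82 without the filter and 0 with any library left out. Foxd3 stayed between -2.0 and -1.84 with a library left out. The labels do not say whether the 2 replicate numbers mark a shared culture or batch, and the main fit does not block on them. Between the 4HT groups of 1 to 5 h, the deviations of replicate 1 from replicate 2 correlated at 0.03 to 0.19. Of 2812 single-gene values of the late comparison 1 reversed: Foxp1 had -0.67 (adjusted p = 0.048) with the length trend removed and 0.01 otherwise. The causes were not tested. List medians near 0 (licensing, E2F and cyclins, primitive endoderm, ribosomal proteins, heat shock) changed sign in some settings. With 2 libraries a group, small changes at depths of 10452390 to 15953054 counts may go uncalled.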
